A study of Mus musculus with 31 samples.

Results

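The 10 genes described here encode the cytosolic and endosomal sensors of foreign or misplaced RNA and DNA, with the adaptors that pass their signal on: Ddx58, Ifih1, Dhx58, Ddx60, Tlr3, Mavs, Eif2ak2, Zbp1, Tmem173 and Mb21d1. They were taken by symbol from a table of exon counts that held 24470 gene symbols, with 1 transcript per symbol. All 10 symbols were in that table, and all 10 were among the 12910 genes that passed the filter on low counts and were tested. Zbp1 passed that filter through the libraries of line 1 alone, and Ddx60 through those of lines 1 and 2. Tlr3 acts in endosomes and not in the cytosol, so the group is wider than its working name of cytosolic sensors.

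RNA was sequenced from female dermal fibroblasts of a CAST/Ei x 129/Sv/Jae hybrid mouse, labelled as differentiated, in 3 groups of 2 libraries. The WT group had both Xist alleles. The other groups were XaWT XiΔXist cells, called line 1, and a separate XaWT XiΔXist #2 line, called line 2, in which Xist, the noncoding RNA of the inactive X chromosome, was deleted on the inactive X. Labels of the same lines in the chromatin assays place that deletion after X inactivation had been established. No treatment is given for the RNA samples, and neither the age of the animals nor whether a line came from 1 clone is given in the sources used here. Xist itself stood at 429 and 633 CPM (counts scaled to library size and composition) in WT and between 0.273 and 1.08 CPM in the 4 libraries of the deleted lines.

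Sensors of nucleic acids recognise molecules by place or by shape. The RIG-I-like receptors RIG-I (Ddx58) and MDA5 (Ifih1) bind viral RNA in the cytosol and signal through MAVS on mitochondria, and cGAS (Mb21d1) binds DNA and makes a cyclic dinucleotide that STING (Tmem173) detects. Both routes activate the kinase TBK1 and the factor IRF3 and lead to type I interferon. Interferon in turn raises many sensor genes, in fibroblasts among other cells, through an element in their promoters called ISRE (interferon-stimulated response element).

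All 14 fibroblast markers examined had counts in all 6 libraries, and their summed level lay between 5442 and 8717 CPM. Of these, Dcn, which encodes decorin, was higher in line 1 (61.9 and 26.9 CPM in WT, 243 and 156 CPM in line 1, adjusted p = 0.0215) and lower in line 2 than in line 1 (28.6 and 19.7 CPM in line 2, adjusted p = 0.0083). Markers of macrophages and leukocytes were low. Their summed level was 18.9 and 20.5 CPM in WT, 29.5 and 30.8 CPM in line 1 and 27.9 and 30.5 CPM in line 2, with Tyrobp at 0 in all libraries and Ptprc at 0 in WT and at most 0.121 CPM as a group mean. Of 14 such markers 3 were tested, and they moved in different directions. Cd14 was higher in line 1 and Lyz2 lower, whereas Cd68 stood at a log2 fold change of 1.99 (adjusted p = 0.0605). Markers of keratinocytes and epithelia summed to between 78.6 and 101.5 CPM in WT and between 10.1 and 34.5 CPM in the lines. Trp63, Dsp and Krt19 were called lower in line 1 and Dsp in line 2. Most of the WT sum was Dsp and Krt19 (group means 36.4 and 40.3 CPM). The keratin genes Krt5, Krt14 and Krt1 had 1, 0.5 and 0 deposited counts over all libraries. Krt10 was not called, with log2 fold changes of 0.31 in line 1 and 0.32 in line 2. Whether WT held keratinocytes or other epithelial cells was not tested. Markers of endothelium summed to 12.6 and 10.7 CPM in WT, 2.70 and 3.41 CPM in line 1 and 6.78 and 5.92 CPM in line 2. Only 3 of these 7 markers were tested. Kdr and Erg were called lower in both lines, and both passed the filter on low counts through WT alone. The list's count in line 2 went from 2 to 1 with DESeq2, 0 with 0.5 rounded down and 3 with no low-count filter. Tek stood at group means of 1.11 CPM in WT, 1.63 CPM in line 1 and 4.28 CPM in line 2. It went the other way and was not called (adjusted p = 0.0767 in line 2). The part of these cell types in the results was not tested. In bulk RNA, fewer cells of a type and less RNA per cell cannot be told apart. The first library of each group had between 3800000 and 4190000 counts over tested genes and the second between 6200000 and 7050000, so replicate number also stands for depth.

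The start regions of the sensor genes were searched first, because several members changed together in line 1. RefSeq promoters (build GRCm38.p6, 250 bases before to 50 bases after the annotated start) matched 7 of the 10 genes by gene identifier: Ddx58, Ifih1, Ddx60, Tlr3, Mavs, Eif2ak2 and Mb21d1, the last under its newer symbol Cgas. The ISRE letters, searched as GAAA, any 2 bases and GAAA again on either strand, were present in 4 of the 7, against 3.49% of 27025 promoters of the same length, 1 per gene. Ddx60 had 2 matches before its start. Ddx58, Ifih1 and Eif2ak2 had 1 match each, within the first bases after the start. Tlr3, Mavs and Mb21d1 had none. For Tlr3 the window (chr8:45410331-45410630, minus strand) was set on an annotated start inside the transcript counted here. That transcript begins at 45410539, so fewer than 250 bases before its own start were searched. The letters of the GAS element, another promoter element of interferon responses, were searched as TTC, any 3 bases and GAA, and occurred in Eif2ak2 alone, at 178 to 170 bases before its start, against 8.47% of all promoters, and overlapped no ISRE match. A match of letters is a description, and no match says only that these letters are not in the window.

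The stretches below carry the matches, 5′ to 3′ on the gene's own strand and with the ISRE letters in capitals. The stretch of Ddx60 (chr8:61927937-61928086, plus strand) and that of Mavs (chr2:131233913-131234062, plus strand), shown as an adaptor without a match, are the 150 bases before the start. Those of Ddx58 (chr4:40239804-40239833), Ifih1 (chr2:62646206-62646235) and Eif2ak2 (chr17:78882535-78882564), each on the minus strand, are 30 bases around the match.
Ddx60: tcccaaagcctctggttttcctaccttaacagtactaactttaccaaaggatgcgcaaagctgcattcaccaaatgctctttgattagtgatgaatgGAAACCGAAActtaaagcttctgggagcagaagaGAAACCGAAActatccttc
Ddx58: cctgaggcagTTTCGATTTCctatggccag
Ifih1: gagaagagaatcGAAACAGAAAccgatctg
Eif2ak2: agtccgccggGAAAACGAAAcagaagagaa
Mavs: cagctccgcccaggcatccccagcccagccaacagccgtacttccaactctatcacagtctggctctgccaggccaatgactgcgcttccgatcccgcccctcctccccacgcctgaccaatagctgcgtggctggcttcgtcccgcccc

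**Figure D1:**
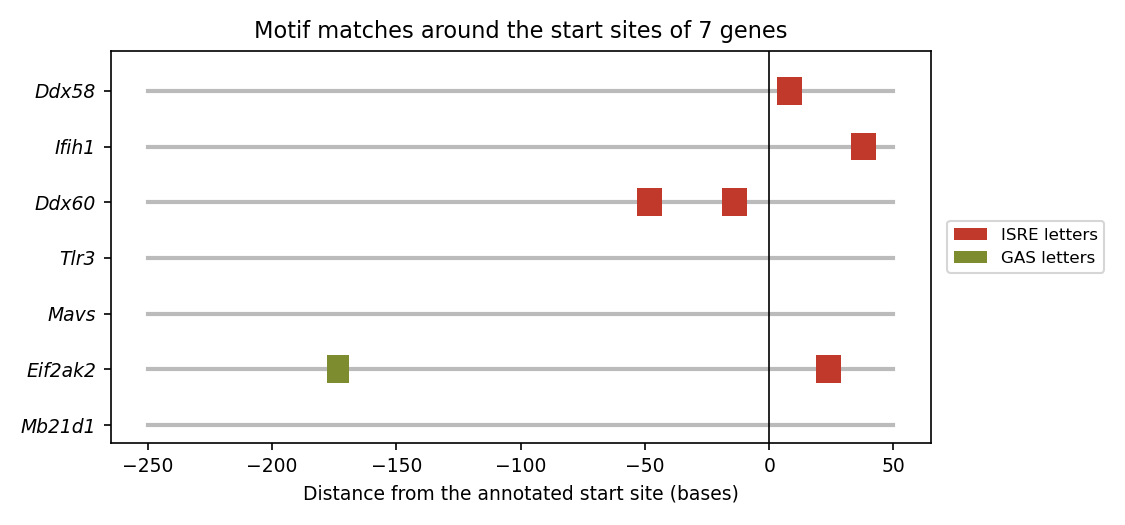
Position of motif letters around the annotated start (0 on the x axis, in bases) of the 7 genes with a RefSeq promoter, 1 row per gene, grey over the window searched. ISRE matches (red) lie before the start in Ddx60 and after it in Ddx58, Ifih1 and Eif2ak2, and the single GAS match (green) lies in Eif2ak2.

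Line 1 was compared with WT to ask whether loss of Xist went with a change of these genes. In line 1, 6 of the 10 genes rose: Ddx58, Ifih1, Ddx60, Tlr3, Eif2ak2 and Zbp1 (edgeR's quasi-likelihood test over all genes, Benjamini-Hochberg adjusted p under 0.05). Of all genes tested, 6.75% were called higher in this comparison. None of the 10 fell, against 7.55% of all genes called lower. The median log2 fold change was 2.62 over the 10 genes and 0.01 over all genes tested. In 9 of the 10 genes both line 1 libraries lay above both WT libraries, against 25.4% of genes tested. Without Zbp1, which entered the test only through line 1, the count was 5 of 9. That count still includes Ddx60, which entered through lines 1 and 2 and not through WT. The median and the 9 of 10 include both genes. The 4 genes with ISRE letters near their start were among those that rose. So was Tlr3, which had none in its window, though that window was set on a start other than that of the transcript counted. Of tested genes with a promoter, 2.97% held these letters, as did 8.25% of those called higher in line 1 and 1.72% of those called lower. The set called higher includes the 4 members with a match and comes from the same test, so these shares are a description only.

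**Figure D2:**
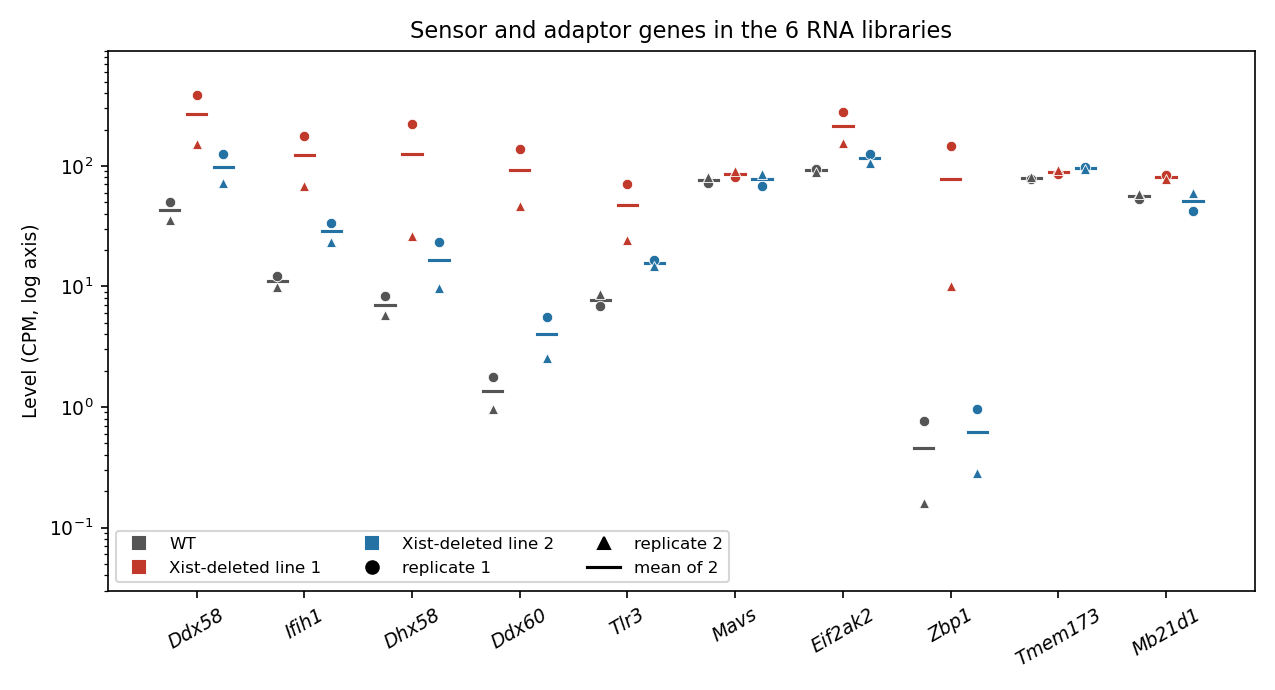
Level of each gene in CPM (y axis, log scale) in the 2 libraries of WT (grey), line 1 (red) and line 2 (blue), with circles for replicate 1, triangles for replicate 2 and bars for the mean. Both line 1 libraries stand above both WT libraries for every gene but Mavs, where only the mean does (85.7 against 76.1 CPM). The line 1 libraries lie far apart for Zbp1 (146 and 10.1 CPM) and Dhx58 (223 and 26.3 CPM).

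The 3 RIG-I-like receptors differed in size of change and in spread. Ddx58, at chr4:40203777-40239825 (mm10, minus strand), encodes RIG-I, which binds short RNA with a triphosphate end. It had 49.8 and 35.5 CPM in WT, 384 and 152 CPM in line 1 and 124 and 71.4 CPM in line 2. The groups did not overlap, with line 1 highest and WT lowest. Ddx58 rose in line 1 by a log2 fold change of 2.66 (SE 0.50, adjusted p = 0.0196).

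Ifih1 (chr2:62595793-62646255, minus strand) encodes MDA5, which binds long double-stranded RNA. It stood at 12.1 and 9.92 CPM in WT, 178 and 67.8 CPM in line 1 and 33.7 and 23.6 CPM in line 2. The order of the groups was that of Ddx58, again without overlap. Its log2 fold change in line 1 was 3.48 (SE 0.51, adjusted p = 0.00791).

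Dhx58 (chr11:100694884-100704271, minus strand) encodes LGP2, a receptor of the same family that lacks the signalling domain of the other two and modulates them. It had 8.34 and 5.76 CPM in WT, 223 and 26.3 CPM in line 1 and 23.3 and 9.73 CPM in line 2. The groups did not overlap, yet the line 1 libraries lay 8.46-fold apart, and the log2 fold change of 4.15 (SE 1.08) had an adjusted p of 0.0535. Dhx58 was thus the gene with a large difference that did not pass. It passed with DESeq2 (adjusted p = 0.00526), with no filter on low counts, and without line 1 replicate 2 (log2 fold change 5.02, adjusted p = 0.00228), and stood at 1.93 (adjusted p = 0.0534) without line 1 replicate 1.

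Ddx60 (chr8:61928087-62037701, plus strand) encodes a helicase that has been described as a cofactor of RIG-I-like receptors and is induced by virus. It was low in WT, at 1.77 and 0.96 CPM, from 7 and 5.5 deposited counts. In line 1 it had 137 and 46.3 CPM and in line 2 5.57 and 2.54 CPM. The lower line 1 library stood 26.2 times above the higher WT library, and the fitted difference came to 6.13 on the log2 scale (SE 0.77, adjusted p = 0.00464). Ddx60 was the 1 member called in line 1 under each of the 15 alternatives tried, with adjusted p from 3.83e-19 to 0.0382.

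Zbp1 (chr2:173206612-173218922, minus strand) encodes a sensor of left-handed Z-form nucleic acid that can start cell death through RIPK3. In WT it had 2.5 and 1 deposited counts (0.758 and 0.16 CPM) and in line 2 it had 4 and 2 counts (0.969 and 0.282 CPM). In line 1 it had 539.5 and 74 counts, which is 146 and 10.1 CPM. Both line 1 libraries were thus above every other library, and they differed 14.4-fold from each other. The ratio of pooled line 1 counts to WT counts was 142 (95% counting interval 55.2 to 523, which covers counting error only), and the log2 fold change of the fit was 7.59 (SE 1.74, adjusted p = 0.0353). A second, shorter RefSeq transcript of Zbp1 that shares its start showed the same order, with 237.5 and 40 counts in line 1, 1.5 and 0.5 in WT and 2 and 0.5 in line 2.

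Tlr3 (chr8:45395665-45410539, minus strand) encodes the endosomal receptor of double-stranded RNA. It had 6.82 and 8.64 CPM in WT, 70.6 and 24.3 CPM in line 1 and 16.5 and 14.7 CPM in line 2. Here too the groups did not overlap. Tlr3 rose in line 1 with a log2 fold change of 2.58 (SE 0.52, adjusted p = 0.025).

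Eif2ak2 (chr17:78852550-78882572, minus strand) encodes PKR, a kinase that double-stranded RNA activates and that halts translation by phosphorylating eIF2-alpha. It was well expressed in WT, at 93.5 and 89.5 CPM, and stood at 278 and 154 CPM in line 1 and 125 and 105 CPM in line 2. Its change in line 1 was the smallest of the 6 called, at a log2 fold change of 1.23 (SE 0.28, adjusted p = 0.0327).

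The adaptors and the DNA sensor did not pass in line 1 in the main fit. Mavs (chr2:131234063-131248024, plus strand), the mitochondrial adaptor of RIG-I and MDA5, had 71.5 and 80.7 CPM in WT, 80.6 and 90.8 CPM in line 1 and 67.8 and 86.3 CPM in line 2. Its groups overlapped, and its log2 fold change of 0.17 in line 1 had a 95% interval of -0.22 to 0.57. The gene of a microRNA, Mir3098, lies on the other strand within Mavs.

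Tmem173 (chr18:35733678-35740554, minus strand) encodes STING, the adaptor of the DNA route. It had 78.1 and 80.8 CPM in WT, 86.2 and 91.6 CPM in line 1 and 97.2 and 94.9 CPM in line 2. The libraries did not overlap between groups, but differences were small, with a log2 fold change of 0.16 in line 1 (95% interval -0.11 to 0.43) and 0.27 in line 2 (0.0025 to 0.54, adjusted p = 0.341).

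Mb21d1 (chr9:78430518-78443237, minus strand) encodes cGAS, and was counted over a noncoding RefSeq record of the locus. It had 53.3 and 58.9 CPM in WT, 84.1 and 77.4 CPM in line 1 and 42.4 and 59.8 CPM in line 2. Both line 1 libraries lay above all others, but the log2 fold change of 0.52 (95% interval 0.06 to 0.98) had an adjusted p of 0.134. With replicate number as a block edgeR called it (log2 fold change 0.52, adjusted p = 0.0391).

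**Figure D3:**
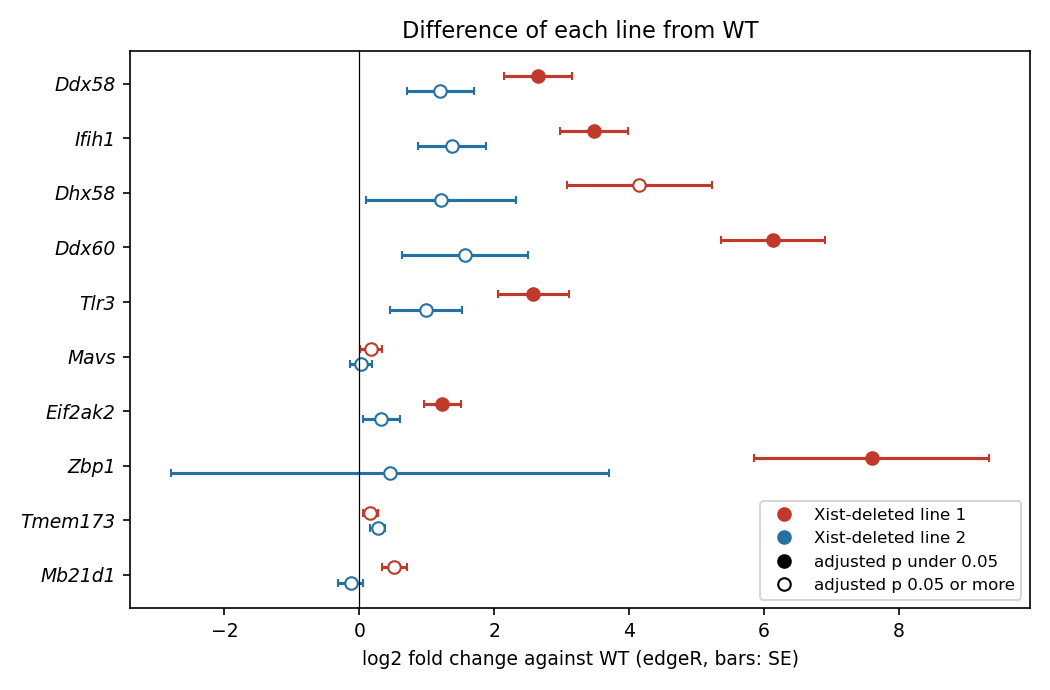
log2 fold change of each gene against WT (x axis; bars, SE) in line 1 (red) and line 2 (blue), filled where the adjusted p of edgeR's test was under 0.05. In line 1, 6 genes are filled, from Eif2ak2 at 1.23 to Zbp1 at 7.59, and in line 2 none is.

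Calls in line 1 were lost without a WT library, and log2 fold changes moved with the line 1 library left out. A line 1 library left alone adds no spread of its own, so calls from such fits cannot test the spread within line 1. Without line 1 replicate 1, the library with the higher sensor levels, log2 fold changes were 1.85 for Ddx58, 2.63 for Ifih1 and 5.16 for Ddx60. Those of Tlr3, Eif2ak2 and Zbp1 were 1.63, 0.75 and 4.67. Without line 1 replicate 2 the values were 3.19, 4.03, 6.73, 3.17, 1.60 and 8.53 in the same order. Without WT replicate 1 only Ifih1 and Ddx60 passed, and without WT replicate 2 only Ddx60. Eif2ak2 and Zbp1 also missed the threshold without either line 2 library, since these share the estimate of spread (adjusted p between 0.0542 and 0.059), and with WT and line 1 fitted alone (0.0592 and 0.0598).

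Within line 1 the libraries differed for most of the sensors. Replicate 1 was more than 2-fold above replicate 2 for 6 of the 10 genes (Ddx58, Ifih1, Dhx58, Ddx60, Tlr3 and Zbp1), against 4.61% of genes tested, with 0.5 CPM added to each level. The ratio was 2.52 for Ddx58, 2.63 for Ifih1, 2.96 for Ddx60, 2.90 for Tlr3 and 1.80 for Eif2ak2. It was 0.89 for Mavs, 0.94 for Tmem173 and 1.09 for Mb21d1. The libraries of these 3 genes, which did not pass against WT in the main fit, thus lay close to each other. Of the tested leukocyte markers, Cd68 and Lyz2 were also higher in replicate 1 of line 1 than in replicate 2 (13.0 and 4.91 CPM, 4.87 and 1.91 CPM). Cd14 was lower in replicate 1 (10.8 and 19.9 CPM). The part of leukocytes in the ratios was not tested. In WT no member exceeded this 2-fold ratio and in line 2 Dhx58 alone did, against 1.23% and 0.852% of genes tested. Replicate 1 of each group was the shallower library, and the part of depth in these ratios was not tested.

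**Figure D4:**
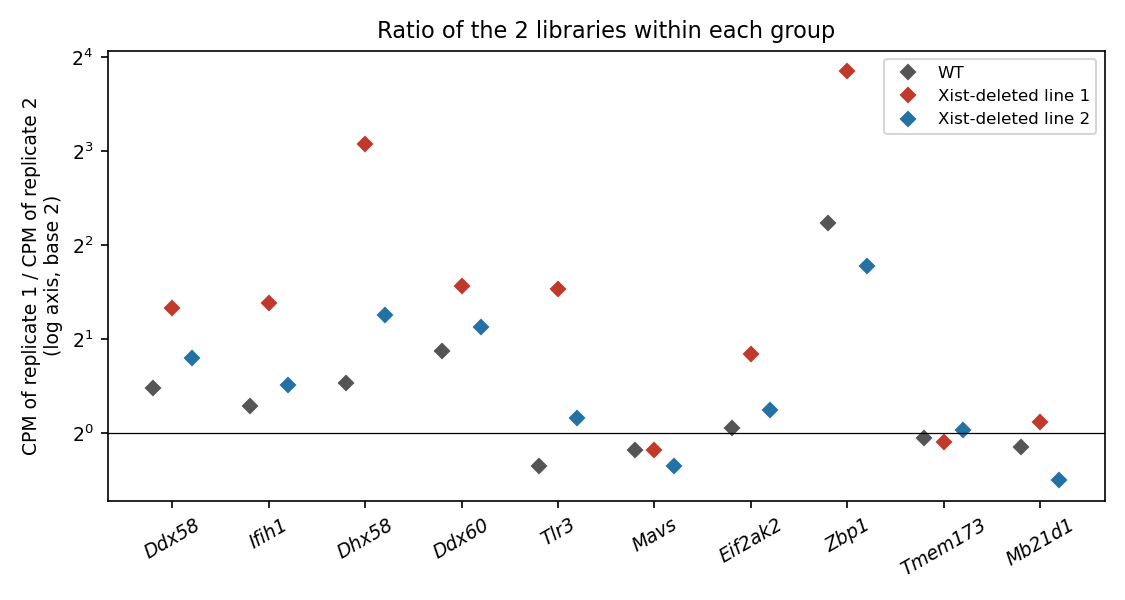
CPM of replicate 1 over CPM of replicate 2 (y axis, log scale to base 2) for each gene in WT (grey), line 1 (red) and line 2 (blue); the line marks equal levels. Line 1 reaches 14.4 for Zbp1 and 8.46 for Dhx58, whereas Mavs, Tmem173 and Mb21d1 lie near 1 in line 1. The plotted ratios have no 0.5 CPM added, so Zbp1 in WT and Zbp1 and Ddx60 in line 2 also exceed 2 here, with Zbp1 resting on 6 counts or fewer per group.

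In line 2, 0 of the 10 genes passed by edgeR, against 3.58% of all genes called in either direction. Ifih1 and Tmem173 had an unadjusted p under 0.05, against 14.5% of genes tested, and DESeq2 called Ifih1 (adjusted p = 0.043). Ifih1 also passed by edgeR without either line 1 library (adjusted p = 0.0331 and 0.0289). With replicate number as a block, edgeR called 3 genes in line 2: Ddx58 (adjusted p = 0.0134), Ifih1 (0.0335) and Ddx60 (0.0366). The median log2 fold change over the 10 genes was 0.72, and both line 2 libraries lay above both WT libraries for 7 of them, against 24.9% of genes tested. Values were 1.20 (SE 0.50, adjusted p = 0.346) for Ddx58, 1.38 (SE 0.51, adjusted p = 0.281) for Ifih1, 1.21 (SE 1.11) for Dhx58 and 1.57 (SE 0.94) for Ddx60. Tlr3 stood at 0.99 (SE 0.53) and Eif2ak2 at 0.33 (SE 0.28). Mavs stood at 0.02 (95% interval -0.37 to 0.42) and Mb21d1 at -0.13 (-0.59 to 0.33). For Zbp1, with 4 and 6 rounded counts in the groups, the ratio was 1.36 (counting interval 0.324 to 6.57), and a difference was not detectable at this depth. Both line comparisons use the same 2 WT libraries.

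The lines were also compared with each other. Both line 2 libraries lay below both line 1 libraries for 8 of the 10 genes, against 24.4% of genes tested. Of the 10 genes 3 were lower in line 2 than in line 1, against 5.76% of all genes called lower: Ifih1 (log2 difference -2.11, SE 0.46, adjusted p = 0.0342), Ddx60 (-4.57, SE 0.66, adjusted p = 0.00809) and Zbp1 (-7.14, SE 1.64, adjusted p = 0.0388). Without Zbp1, which entered the test through line 1 alone, the count was 2 of 9. For Ddx58 (-1.46, adjusted p = 0.114), Dhx58 (-2.94, adjusted p = 0.122), Tlr3 (-1.59, adjusted p = 0.0986), Eif2ak2 (-0.90, adjusted p = 0.0914) and Mb21d1 (-0.65, adjusted p = 0.083) the difference did not pass, though each had an unadjusted p under 0.05. In all 8 genes did so, against 24.6% of genes tested. Mavs (-0.15, 95% interval -0.54 to 0.24) and Tmem173 (0.11, -0.16 to 0.38) did not pass either. With replicate number as a block 8 of the 10 were called lower, all but Mavs and Tmem173. Calls here moved with single libraries: 7 members passed without line 1 replicate 2, and 1 without WT replicate 1, WT replicate 2 or line 2 replicate 1. Without line 2 replicate 2 none passed, with adjusted p of 0.191 for Ifih1, 0.0625 for Ddx60 and 0.221 for Zbp1.

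Levels of different genes are compared per length, as CPM per kilobase of transcript. In WT the adaptor Tmem173 was the most abundant, at 35.9 ± 0.877 (SD, n = 2), followed by Mavs (24.6 ± 2.09), Eif2ak2 (21.2 ± 0.659), Mb21d1 (13.6 ± 0.955) and Ddx58 (8.63 ± 2.04). Dhx58 (2.92 ± 0.756), Ifih1 (2.00 ± 0.283) and Tlr3 (1.79 ± 0.297) were low. Zbp1 (0.231 ± 0.213) and Ddx60 (0.228 ± 0.0954) were lowest. Neighbours in this order overlapped only for Ifih1 with Tlr3 and for Zbp1 with Ddx60.

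In line 1 the order was led by Ddx58 (54.2 ± 33.1 CPM per kilobase), Dhx58 (51.7 ± 57.6) and Eif2ak2 (49.9 ± 20.2), ahead of Tmem173 (40.2 ± 1.71). Zbp1 followed at 39.3 ± 48.4. Every neighbouring pair overlapped in line 1, so its order is not resolved by 2 libraries. Line 2 kept Tmem173 first (43.4 ± 0.723) and Zbp1 (0.315 ± 0.245) and Ddx60 (0.677 ± 0.358) last.

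Among the 5 genes whose pattern over the 6 libraries was nearest to the median of the 10 sensors, by Euclidean distance of centred log2 CPM, were Pgf, Irgm1, Ube2l6 and Dtx3l. Irgm1, an interferon-inducible GTPase, had 31.1 and 35.0 CPM in WT, 223 and 102 CPM in line 1 and 66.1 and 51.5 CPM in line 2 (distance 0.429, Pearson's r 0.993 over 6 libraries). Its groups did not overlap, with line 1 highest and WT lowest. Pgf encodes placental growth factor, Ube2l6 the conjugating enzyme for ISG15 and Dtx3l a ubiquitin ligase. The distances of these 4 genes ranged from 0.424 for Pgf to 0.479 for Dtx3l. The 6 libraries fall in 3 groups and share their depth, so these values describe likeness only.

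Of 26 genes of RIG-I-like receptor signalling, 4 rose and 2 fell in line 1, with a median log2 fold change of 0.10 against 0.01 over all genes. For this list and those below, 6.75% of all genes tested were called higher in line 1 and 7.55% lower. The 2 of 26 that fell are thus near the share over all genes. In line 2, 3.58% of all genes were called in either direction, and 14.5% had an unadjusted p under 0.05 by edgeR. Trim25, the ubiquitin ligase described as an activator of RIG-I, had 58.1 and 43.2 CPM in WT and 374 and 215 CPM in line 1 (log2 fold change 2.55, SE 0.30, adjusted p = 0.00358). Irf7, the interferon-inducible regulator of interferon genes, had 11.9 and 7.84 CPM in WT and 265 and 70.3 CPM in line 1 (4.11, SE 0.79, adjusted p = 0.0201; 2.86 without line 1 replicate 1 and 4.79 without replicate 2). Ikbke, a kinase related to TBK1, rose by 1.39 (SE 0.20). Nlrc5, a regulator of MHC class I genes, rose by 3.57 (SE 0.72), or by 2.31 and 4.27 without line 1 replicate 1 and replicate 2. It was outside the rule for named genes and is given because it completes the count. Of the kinase and factor that the route activates, Tbk1 stood at 0.11 (adjusted p = 0.678) and Irf3 at -0.16 (adjusted p = 0.499), neither called; both were chosen after their values were seen.

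Nlrx1, a mitochondrial protein described as a restraint on MAVS, fell in both lines. It had 22.2 and 20.8 CPM in WT, 2.16 and 1.36 CPM in line 1 and 5.57 and 7.05 CPM in line 2. Against WT it changed by -3.68 on the log2 scale in line 1 (SE 0.31, adjusted p = 0.00139) and by -1.75 in line 2 (SE 0.26, adjusted p = 0.0265). Tbkbp1, an adaptor of TBK1, fell in line 1 from 6.82 and 3.20 CPM to 0.811 and 0.136 CPM (log2 ratio of pooled counts -3.67, counting interval -5.60 to -2.21) and completes that count. In line 2 the list held 1 gene higher, Rnf125, a ubiquitin ligase of RIG-I (log2 fold change 2.27, SE 0.34, adjusted p = 0.0264), and 1 lower, Nlrx1. Rnf125 lay outside the rule for named genes and completes the count. Its group means were 1.11 CPM in WT, 1.43 CPM in line 1 and 5.22 CPM in line 2. Rnf125 thus passed the filter on low counts through line 2 alone, the group where it is high, and DESeq2 did not call it. Rnf125 and Nlrx1 lost their calls in line 2 without either WT or either line 2 library, with log2 fold changes of 2.05 to 2.45 and -1.95 to -1.61 over the libraries left out.

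Of 19 tested genes among other DNA sensors and regulators of STING, 4 rose and 2 fell in line 1 (median log2 fold change 0.21), and 0 passed in line 2 by edgeR, with 4 at an unadjusted p under 0.05 and 1 by DESeq2. Ifi204, Ifi203 and Mndal, of the interferon-inducible p200 family, rose by 2.06 (SE 0.26), 3.37 (SE 0.50) and 3.96 (SE 0.72). Without line 1 replicate 1 the values of Ifi203 and Mndal were 2.49 and 2.68, and without replicate 2 they were 3.92 and 4.64. Copies of this family resemble each other, so their counts are uncertain. Enpp1, the enzyme that degrades the cyclic dinucleotide of cGAS, had 45.2 and 30.9 CPM in WT and 171 and 177 CPM in line 1 (log2 fold change 2.21, SE 0.26, adjusted p = 0.00375). Rhbdf2, which is required for trafficking of STING, fell from 12.9 and 6.72 CPM in WT to 0.27 and 0.136 CPM in line 1, which is 2 rounded counts (log2 ratio -5.65, counting interval -8.72 to -3.76). Mndal lay outside the rule for named genes and is given for the count of genes that rose.

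Among 12 genes that clear or edit nucleic acids, Dnase2a, the lysosomal DNase, rose in line 1 (1.16, SE 0.20, adjusted p = 0.0131) and none passed in line 2 by edgeR, with 1 at an unadjusted p under 0.05 and 0 by DESeq2. In line 1 the list's count went from 1 to 4 with DESeq2, 6 with no low-count filter, 6 with the replicate block, 3 without line 1 replicate 1, 5 without line 1 replicate 2 and 0 without WT replicate 2. Its median was 0.70 in line 1. Adar, which edits double-stranded RNA, stood at 1.14 (adjusted p = 0.0652) and was named after its values were seen. In the endosomal Toll-like receptor pathway 1 of 9 tested genes changed in line 1. Unc93b1, the chaperone that carries TLR3 and other receptors to endosomes, fell from 31.6 and 16.8 CPM in WT to 1.08 and 0 CPM in line 1, from 4 and 0 deposited counts (log2 ratio of pooled counts -5.96, counting interval -7.84 to -4.58, adjusted p = 0.00788), and stood at 46.0 and 30.5 CPM in line 2. None of the 9 passed in line 2 by edgeR or DESeq2, with 0 at an unadjusted p under 0.05. Tlr7, Tlr8 and Tlr9 were too low to test.

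Ripk3, the kinase through which ZBP1 can start necroptosis, rose in both lines. It had 44.7 and 42.6 CPM in WT, 106 and 93.4 CPM in line 1 and 101 and 95.2 CPM in line 2. On the log2 scale the rise came to 1.19 in line 1 (SE 0.13, adjusted p = 0.00281) and to 1.17 in line 2 (SE 0.13, adjusted p = 0.0115), where the call was lost without either WT or either line 2 library (values 1.12 to 1.22). Of the 7 partners of ZBP1 in cell death, Cflar, an inhibitor of caspase-8, rose in line 1 as well (0.65, SE 0.16, adjusted p = 0.0432). Mlkl, the effector of necroptosis, was lower in line 2 than in line 1 (log2 difference -1.10, adjusted p = 0.0142) and stood at -0.89 (adjusted p = 0.0647) against WT; it lay outside the rule for named genes.

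Other RNA helicases and eIF2-alpha kinases did not pass. Of 15 other helicases and double-stranded RNA binding proteins, among them Dhx9 and Ddx3x, 0 passed in either line by edgeR, with 0 at an unadjusted p under 0.05, and the log2 fold changes in line 1 lay between -0.34 and 0.29. Of 11 genes of the other eIF2-alpha kinases and the integrated stress response, 0 passed in either line by edgeR, with 1 in line 1 and 0 in line 2 at an unadjusted p under 0.05, and values in line 1 lay between -0.54 and 0.08. DESeq2 also called 0 in each of these lists and lines. Of the stress response genes, however, 4 were called in line 1 without line 1 replicate 1 and 2 with the replicate block, and 1 in line 2 without either line 1 library or with WT and line 2 fitted alone. Of the helicases 1 was called in line 1 without line 1 replicate 2, and 1 in each line with the block.

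Interferon genes themselves were barely counted. All 18 interferon ligands listed were in the table and none passed the filter on low counts. Ifnb1, the interferon of fibroblasts, had 1 count in each line 1 library and 0 in WT and line 2, where 3 counts per group, or 0.294 CPM in WT and 0.267 CPM in line 2, could have been missed. Ifna4 had 4 and 0.5 counts in line 1 and 0 elsewhere. The summed level of the ligands was 0.505 and 0.16 CPM in WT, 1.62 and 0.409 CPM in line 1 and 0 and 0.141 CPM in line 2, and 12 of the 18 were at 0 in all libraries.

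**Figure D5:**
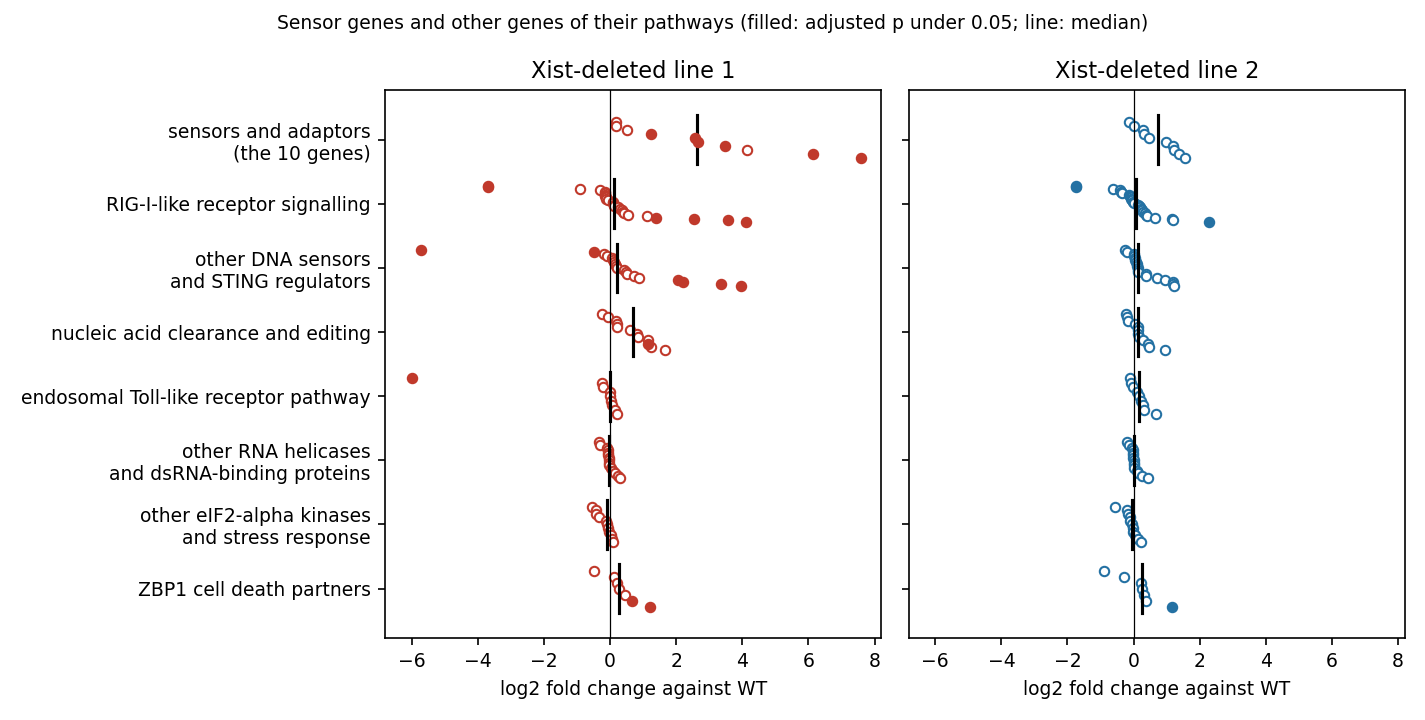
log2 fold change against WT (x axis) of each tested gene, by list (rows), in line 1 (left, red) and line 2 (right, blue); filled points passed edgeR's test and black bars are list medians. The 10 sensors and adaptors have medians of 2.62 and 0.72, and the other helicases and stress response genes lie near 0.

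Of the 16 calls on these companion genes in line 1, 7 were lost without WT replicate 1 (among them Nlrc5, Ikbke, Tbkbp1, Irf7, Mndal and Cflar) and 9 without WT replicate 2 (these and Ifi203 and Dnase2a). Without line 1 replicate 2 or either line 2 library 3 were lost, among them Tbkbp1 and Cflar, and 0 without line 1 replicate 1. Calls kept without a line 1 library do not test the spread within line 1, since its remaining library adds none to the fit. No companion call changed direction under any alternative.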

How the data were processed

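RNA of 6 libraries (3 groups of 2, biological replicates per the labels' protocols) was analysed here; the 17 ATAC and 8 ChIP samples were not used. Ribosome-depleted, strand-specific libraries were sequenced as 50 bp read pairs per the labels' protocols. Reads were handled with TopHat2, SAMtools, HOMER, bedtools 2.25.0 and Trim Galore 0.4.1 on mm10, in an order not given, per the submitters' processing notes. Per the file headers, HOMER counted reads over exons of RefSeq transcripts without normalization. The values deposited are expected counts in steps of 0.5, not whole counts as had been assumed, and were rounded to whole numbers (0.5 up).

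From 28972 transcripts, the one with the highest total was kept per symbol (24470 symbols). edgeR 4.0.16 (R 4.3.3) with TMM scaling, its filterByExpr filter and a quasi-likelihood fit of all 6 libraries, leaving 3 residual degrees of freedom, tested line 1 against WT, line 2 against WT and line 2 against line 1. The p-values were adjusted by Benjamini-Hochberg over 12910 genes at 0.05. CPM are counts scaled by TMM library sizes, and log2 fold changes are unshrunk. The scripts were tested on simulated data. Alternatives were RLE scaling, DESeq2 1.42.0, other low-count filters, summed transcripts, other rounding, 2 groups only, a replicate block, and each library left out.

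Named genes were all 10 members, up to 4 genes per companion list by smallest adjusted p among those called against WT, and the 5 genes nearest in pattern; some of these are not reported here. The members, the lists and the tests were chosen with earlier results of these data known. Promoter sequences are from RefSeq. Depth was 3800000 to 7050000 counts per library, and counting intervals (95%) cover counting error only.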

Additional observations from a re-analysis of the deposited data

Results flagged for a closer look

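The lines differed from each other in 3 sensor genes by edgeR's test of the difference itself, against 5.76% of all genes called lower in line 2. Zbp1 entered that test through line 1 alone, the group where it is high. Line 2 was lower than line 1 by a log2 difference of -2.11 for Ifih1 (adjusted p = 0.0342), -4.57 for Ddx60 (adjusted p = 0.00809) and -7.14 for Zbp1 (adjusted p = 0.0388). Both line 2 libraries lay below both line 1 libraries for each of the 3. Line 1 replicate 1 carried the higher level of each. Without it the differences were -1.26 for Ifih1, -3.60 for Ddx60 and -4.21 for Zbp1. Line 1 then has 1 library and adds no spread of its own, so only these sizes are given. Ifih1 and Zbp1 missed the threshold without either WT or either line 2 library, and Ddx60 without line 2 replicate 2 alone.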

How the results depend on the processing

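Of the 10 members, 6 were called in line 1, 0 in line 2 and 3 between the lines. Over the libraries left out in turn these counts ranged from 1 to 7, from 0 to 1 and from 0 to 7, and the counts over all genes (1846, 462 and 1630) from 718 to 2361, from 23 to 783 and from 600 to 1991. Where a group was left with 1 library, that library is assumed to vary like the others. With DESeq2, with no low-count filter and with the 2 compared groups only, the member count was 7, 7 and 4 in line 1 (all genes 1854, 2664 and 1257), 1, 2 and 1 in line 2 (all genes 581, 948 and 790) and 6, 7 and 1 between the lines (all genes 1673, 2361 and 1194). With the replicate block, members called were 8 in line 1, 3 in line 2 and 8 between the lines, and all genes called were 4182, 1568 and 3506. Differences between same-numbered libraries correlated across genes (r = 0.547, 0.604 and 0.537 for the 3 pairs of groups), and depth follows the number. The labels do not say what a number stands for, so the block is given as an alternative. Directions in line 1 were the same for all 10 members under all 15 alternatives. In line 2, Mavs turned to -0.06 without WT replicate 1 and -0.17 without line 2 replicate 2 (range -0.17 to 0.18), Zbp1 to -0.48 without WT replicate 2 and -0.50 without line 2 replicate 1 (range -0.50 to 1.77), and Mb21d1 to 0.089 without line 2 replicate 1 (range -0.41 to 0.089). Between the lines, Mavs turned to 0.017 without line 2 replicate 1 (range -0.35 to 0.017). The causes were not tested. Zbp1 was removed by the filter when line 2 and WT were fitted alone. With 2 libraries per group and fewer than 5 counts of Zbp1 in WT, depth limits what can be said of the lowest genes.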
